A study of Pyrus pyrifolia with 6 samples.

Results

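Sorbitol dehydrogenase genes of pear lie side by side in 2 rows, and 8 of them are described here, in healthy pulp and in pulp with watercore. The 8 are the genes of a fixed list, 6 on scaffold NW_008988633.1 and 2 on scaffold NW_008988232.1. They are 8 of the 14 genes that the deposited table names sorbitol dehydrogenase, and 8 of its 38969 genes. All 14 lie on these 2 scaffolds, so the other 6 are the missing positions of the same rows and are given where a position is compared. The list was chosen by product name and place, with the fold changes between these same libraries known, and it states no threshold. The levels and changes of the listed genes are therefore a description, and no p is given for any of them.

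RNA was sequenced from 3 healthy and 3 watercore libraries of sand pear fruit (*Pyrus pyrifolia*) harvested at 120 days per the labels, and these are the only groups. Watercore, a disorder of apples and pears, shows as wet, glassy patches in cut fruit. The labels name the cultivar Qiurong and the organ skin but the sampled tissue pulp, while the paper names the cultivar Akibae, pulp and a slightly later day, and the groups used here are those of the labels. The fruit were field-grown and untreated, and the sources used here do not give how fruit were pooled into libraries.

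In pear, apple and their relatives, sorbitol is the main sugar carried from leaves to fruit. Sorbitol-6-phosphate dehydrogenase makes its phosphate in leaves, polyol transporters carry it across membranes, and sorbitol dehydrogenase oxidises it to fructose in the fruit with NAD+ as the electron acceptor. Fructokinase and hexokinase then phosphorylate the fructose. Sorbitol dehydrogenase is a zinc enzyme of the medium-chain dehydrogenase family, and 13 of the 14 genes carry both domains of that family in the table, the zinc-binding dehydrogenase domain and the alcohol dehydrogenase GroES-like domain. LOC103933320 carries 0 domains there, and its listed length of 3852 bases exceeds its span of 2065 bases.

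The 8-gene row runs from 107591 to 159238 on NW_008988633.1 with every gene on the minus strand, and the 6-gene row from 161846 to 202023 on NW_008988232.1 with every gene on the plus strand. The sources used here do not give the genome build of these positions. With 0 other genes inside either row, the gaps between neighbours were 3568 to 7525 bases in the 8-gene row and 3095 to 10379 bases in the 6-gene row. Around the rows, within 50000 bases of the outermost genes, the table has 14 genes beside the 8-gene row and 13 beside the 6-gene row. Of these, 9 have the same product name on both scaffolds when member numbers, locus names, compartment words and the suffix "-like" are ignored. The pentatricopeptide repeat genes are thus matched by protein class alone, since the table likens them to different Arabidopsis loci. The same holds for the CCCH zinc finger genes, named 48 and 63, and the dehydration-responsive element-binding genes, named 1A and 1D. This was a comparison chosen after the table was seen. All 9 stand in the same order when one scaffold is read backwards, and all 9 lie on opposite strands. On one side of both rows stands a CCCH zinc finger gene, followed by a calcium-dependent protein kinase 26 gene. On the other side stands the pentatricopeptide repeat (PPR) gene, with a TCP19 transcription factor gene beyond it. Genes not shared by name intervene on both sides. On the CCCH side, beyond the kinase genes, these are LOC103933309 beside the 8-gene row, and LOC103960517 and LOC103960522 beside the 6-gene row. On the PPR side, LOC103933322 and LOC103933325 stand between the 8-gene row and its PPR gene, and LOC103960504 between the PPR and TCP19 genes beside the 6-gene row. Read from these flanks, the genes of both rows are transcribed towards the CCCH zinc finger gene.

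**Figure D1:**
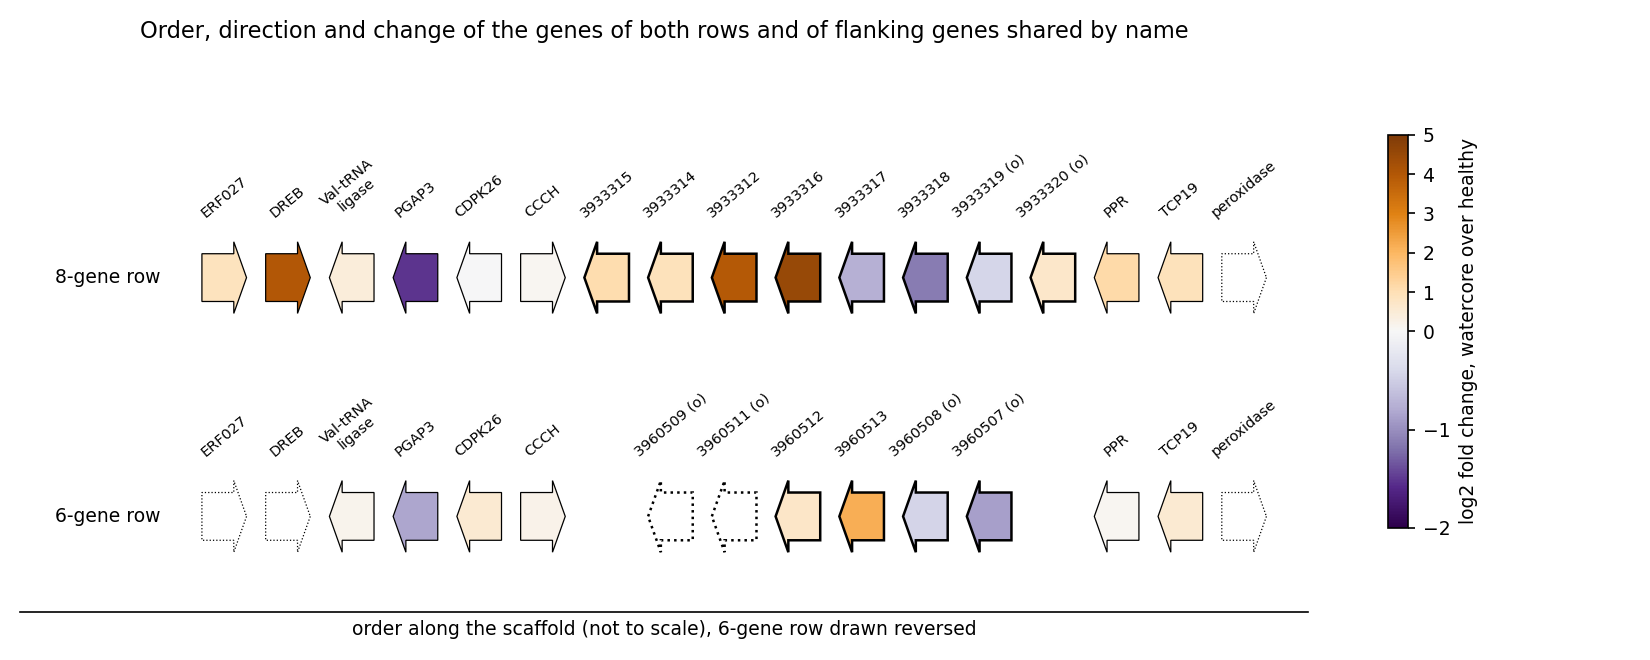
Order of the genes of both rows and of the 9 flanking genes shared by name, with the 6-gene row drawn reversed (not to scale). Arrows point in the direction of transcription, colour gives the log2 fold change of watercore over healthy pulp, a dotted outline marks a gene that was not tested, names leave out the shared start LOC10, and (o) marks a sorbitol dehydrogenase gene outside the list of 8. Among the sorbitol dehydrogenase genes (thick outlines), positive changes stand towards the CCCH side and negative ones towards the PPR side, apart from LOC103933320 at the outer end of the 8-gene row.

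Counted from the CCCH side, positions 1 to 6 of the 8-gene row are LOC103933315, LOC103933314, LOC103933312, LOC103933316, LOC103933317 and LOC103933318, all of the list. LOC103933319 and LOC103933320 follow at positions 7 and 8. In the 6-gene row, LOC103960509 and LOC103960511 come first, the listed LOC103960512 and LOC103960513 hold positions 3 and 4, and LOC103960508 and LOC103960507 close the row. LOC numbers follow this order only in part.

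In both kinds of pulp a few genes of each row held nearly all of its transcript. Levels are compared between genes as FPKM, counts scaled by gene length and library size, as the authors deposited it. The sources used here do not give how reads shared by similar copies were counted, so the split between neighbours is uncertain. Pulp was sequenced in bulk, and fewer cells of a type cannot be told apart from less RNA per cell.

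LOC103933317 (135907 to 137551) was the most abundant of the listed genes. Its level was 1634, 1655 and 1651 FPKM in the healthy libraries and 1003, 966 and 966 FPKM in the watercore libraries. The healthy libraries lay close together and all above the watercore ones. Its counts were 1.70-fold higher in healthy pulp (log2 fold change −0.76, standard error 0.05), short of the threshold of the study, a log2 fold change of 1 or more in either direction at an adjusted p under 0.05. Genes that met both are spoken of here as called.

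LOC103933318 (142645 to 144251), the next gene of the row, was the listed gene called lower in watercore pulp. Its level was 195, 208 and 203 FPKM in healthy and 98.4, 87.7 and 93.5 FPKM in watercore libraries. All watercore libraries were below all healthy ones, and the change was 2.18-fold (log2 fold change −1.13, standard error 0.06). With counts corrected for a trend with gene length, the log2 fold change was −0.97 and the call was lost. LOC103933317 stood at 7.97 to 8.39 times the FPKM of LOC103933318 in the healthy libraries and at 10.2 to 11.01 times in the watercore libraries, so the pair did not keep 1 ratio.

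LOC103933319 (148186 to 149648), outside the list, had 561 ± 18.2 FPKM in healthy and 420 ± 23.0 FPKM in watercore pulp (SD, n = 3). Its log2 fold change of −0.43 (standard error 0.06) has the sign of those of LOC103933317 and LOC103933318.

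The 4 genes on the CCCH side of LOC103933317 were all rare. LOC103933316 (127539 to 129235), the direct neighbour of the most abundant gene, had 0.0903, 0.0446 and 0.187 FPKM in healthy libraries and 2.52, 2.52 and 2.62 FPKM in watercore libraries. These values rest on 2, 1 and 4 counts in healthy and 57, 54 and 57 counts in watercore libraries. It was called higher, with the largest change of the list, 22.6-fold (log2 fold change 4.50, standard error 0.41).

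The counts of the rare gene did not stay in 1 ratio to those of its abundant neighbour. Per 10000 counts of LOC103933317 there were 0.265 to 1.11 counts of LOC103933316 in the healthy libraries and 24.6 to 26.6 in the watercore libraries. For LOC103933312 there were 0.265 to 1.67 and 23.7 to 40.7 counts per 10000. Both ratios were higher in all watercore libraries than in any healthy one.

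LOC103933312 (119824 to 123786) had 0.240, 0.0396 and 0.249 FPKM in healthy libraries and 2.78, 2.07 and 3.55 FPKM in watercore libraries. Its counts were 6, 1 and 6 in healthy and 71, 50 and 87 in watercore libraries. It too was called higher, 15.4-fold (log2 fold change 3.95, standard error 0.47). It has the longest span of the list, 3963 bases for a listed length of 1675 bases.

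The outermost pair of the row changed less. LOC103933315 (107591 to 109629) had 1.90, 1.47 and 1.06 FPKM in healthy libraries and 2.56, 3.39 and 3.40 FPKM in watercore libraries. It was called higher (log2 fold change 1.06, standard error 0.28), but not without healthy replicate 3 (0.87) or watercore replicate 3 (0.99).

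LOC103933314 (113198 to 116149) had 1.83, 2.01 and 1.35 FPKM in healthy and 3.58, 2.43 and 3.94 FPKM in watercore libraries. Its groups did not overlap either, but its log2 fold change of 0.92 (standard error 0.27) missed the threshold. It met the threshold with healthy replicate 2 (1.04) or watercore replicate 2 (1.11) left out, and with the correction for gene length (1.14). Without watercore replicate 1 (0.87) or watercore replicate 3 (0.78) it also missed the adjusted p limit of 0.05.

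In watercore pulp these 4 genes stood at similar low levels. Their means lay between 2.55 ± 0.06 FPKM for LOC103933316 and 3.32 ± 0.79 FPKM for LOC103933314 (SD, n = 3), and the libraries of each gene overlapped with those of the others. In healthy pulp they formed separate pairs. LOC103933314 and LOC103933315 overlapped at 1.06 to 2.01 FPKM, and LOC103933312 and LOC103933316 overlapped below 0.249 FPKM.

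**Figure D2:**
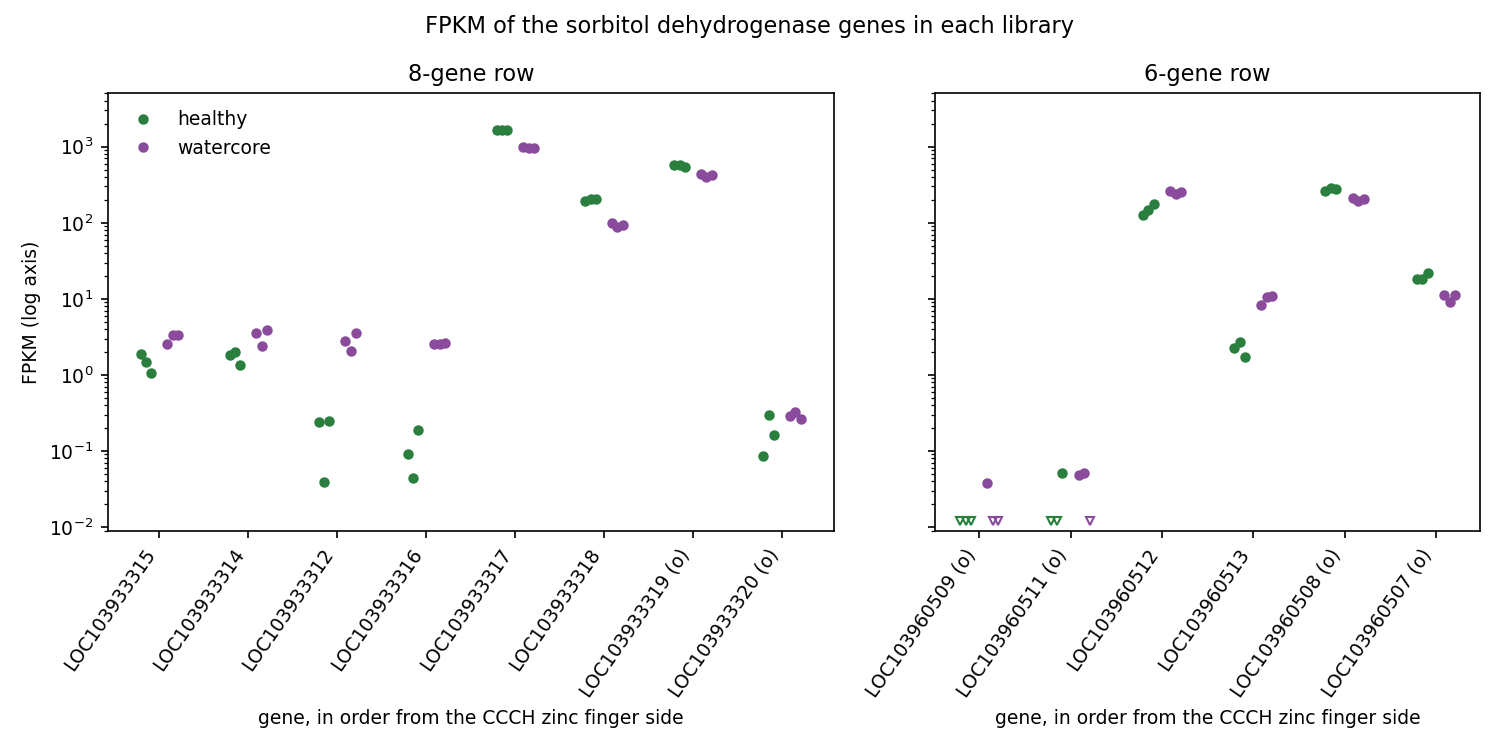
FPKM of each gene in each library on a log axis, with genes in order from the CCCH zinc finger side, healthy libraries in green and watercore libraries in purple. Open triangles at the bottom mark a library with 0 FPKM, and (o) marks genes outside the list of 8. The 4 genes of the 8-gene row nearest the CCCH side lie below 4 FPKM, between 2.07 and 3.94 FPKM in watercore libraries, and LOC103933317 lies between 966 and 1655 FPKM.

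In the 6-gene row, the listed pair was higher in watercore pulp. LOC103960512 (185743 to 187411) had 126, 147 and 175 FPKM in healthy and 260, 236 and 255 FPKM in watercore libraries. The groups did not overlap, and the healthy libraries were spread more widely than the watercore ones. The log2 fold change was 0.73 (standard error 0.11), or 1.66-fold, short of the fold threshold.

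LOC103960513 (180729 to 182136), beside it, had 2.23, 2.73 and 1.71 FPKM in healthy and 8.42, 10.7 and 11.04 FPKM in watercore libraries. It was called higher, 4.46-fold (log2 fold change 2.16, standard error 0.21). Per 100 counts of LOC103960512 there were 0.802 to 1.53 counts of LOC103960513 in healthy and 2.66 to 3.72 in watercore libraries.

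The other genes of this row were lower in watercore pulp or almost silent. LOC103960508 (174267 to 175810) had 274 ± 12.9 FPKM in healthy and 203 ± 9.12 FPKM in watercore pulp (SD, n = 3), with a log2 fold change of −0.45 (standard error 0.06). LOC103960507 (161846 to 163887) had 19.3 ± 2.10 and 10.5 ± 1.32 FPKM, with a log2 fold change of −0.88 (standard error 0.13). LOC103960511 and LOC103960509, at the CCCH end, had at most 1 count in any library and were not tested.

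LOC103960512 and LOC103960508 exchanged ranks. The FPKM of LOC103960512 was 0.482, 0.511 and 0.639 times that of LOC103960508 in the healthy libraries and 1.23, 1.22 and 1.25 times in the watercore libraries. LOC103960512 was thus below LOC103960508 in all 3 healthy libraries and above it in all 3 watercore libraries.

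As shares of the summed FPKM of the row, LOC103960512 held 33.4 ± 3.22% in healthy and 52.8 ± 0.268% in watercore pulp (SD, n = 3). LOC103960508 held 61.8 ± 3.29% and 42.8 ± 0.393%. The make-up of the 8-gene row shifted less, with LOC103933317 at 68.2 ± 0.542% in healthy and 65.1 ± 1.03% in watercore pulp. LOC103933318 held 8.37 ± 0.242% and 6.20 ± 0.168%, and LOC103933319 held 23.2 ± 0.677% and 27.9 ± 0.821%.

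**Figure D3:**
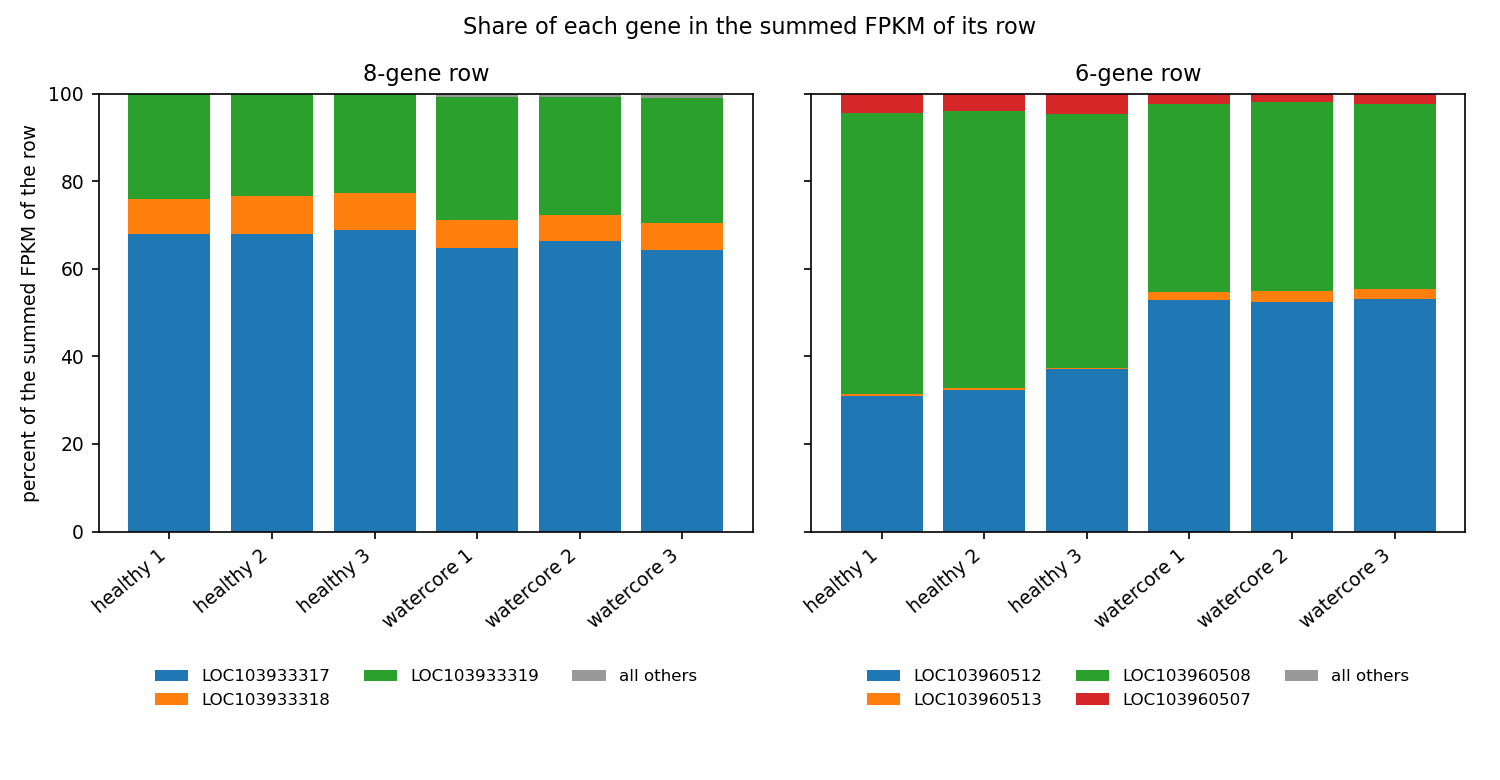
Percent of the summed FPKM of each row held by each gene, with 1 bar per library and genes under 1% in every library joined as all others. In the 6-gene row LOC103960512 stands at 30.9 to 37.0% in healthy and at 52.5 to 53.0% in watercore libraries, and in the 8-gene row LOC103933317 stays between 64.3 and 68.9%.

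The summed level of the 2 rows differed between the groups in different ways. Over the 6 listed genes of the 8-gene row it was 1833, 1867 and 1857 FPKM in healthy and 1113, 1064 and 1073 FPKM in watercore libraries. Over the listed pair of the 6-gene row it was 128, 150 and 177 FPKM in healthy and 269, 246 and 266 FPKM in watercore libraries. The first sum was lower and the second higher in every watercore library than in any healthy one.

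Over all 6 genes of the 6-gene row, however, the groups overlapped, with 408, 455 and 473 FPKM in healthy and 492, 449 and 481 FPKM in watercore libraries. The higher level of the listed pair and the lower level of LOC103960508 and LOC103960507 nearly cancelled there. Over all 8 genes of the 8-gene row the sum was 2413 ± 18.2 FPKM in healthy and 1504 ± 45.8 FPKM in watercore pulp (SD, n = 3). LOC103933317 stood at 9.43 to 13.0 times the FPKM of LOC103960512 in the healthy libraries and at 3.79 to 4.10 times in the watercore libraries.

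In order of their healthy FPKM the listed genes were LOC103933317, LOC103933318, LOC103960512, LOC103960513, LOC103933314, LOC103933315, LOC103933312 and LOC103933316. Neighbours in this order overlapped between their libraries at LOC103960513 and LOC103933314, at LOC103933314 and LOC103933315, and at LOC103933312 and LOC103933316. In watercore pulp LOC103960512 stood above LOC103933318, and the other places were the same, although LOC103933314, LOC103933315, LOC103933312 and LOC103933316 overlapped.

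Set by position, the sign of the change split both rows at 1 point. In the 8-gene row positions 1 to 4 had positive log2 fold changes and positions 5 to 7 negative ones. In the 6-gene row positions 3 and 4 had positive and positions 5 and 6 negative ones. LOC103933320 at position 8 went against this, with 0.181 ± 0.104 FPKM in healthy and 0.293 ± 0.029 FPKM in watercore pulp (SD, n = 3) and a log2 fold change of 0.68 (standard error 0.44) that was not called. Level did not split in the same way, since LOC103960512 was abundant and higher in watercore pulp, while LOC103960507 was lower in watercore pulp at a mean of 19.3 and 10.5 FPKM.

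**Figure D4:**
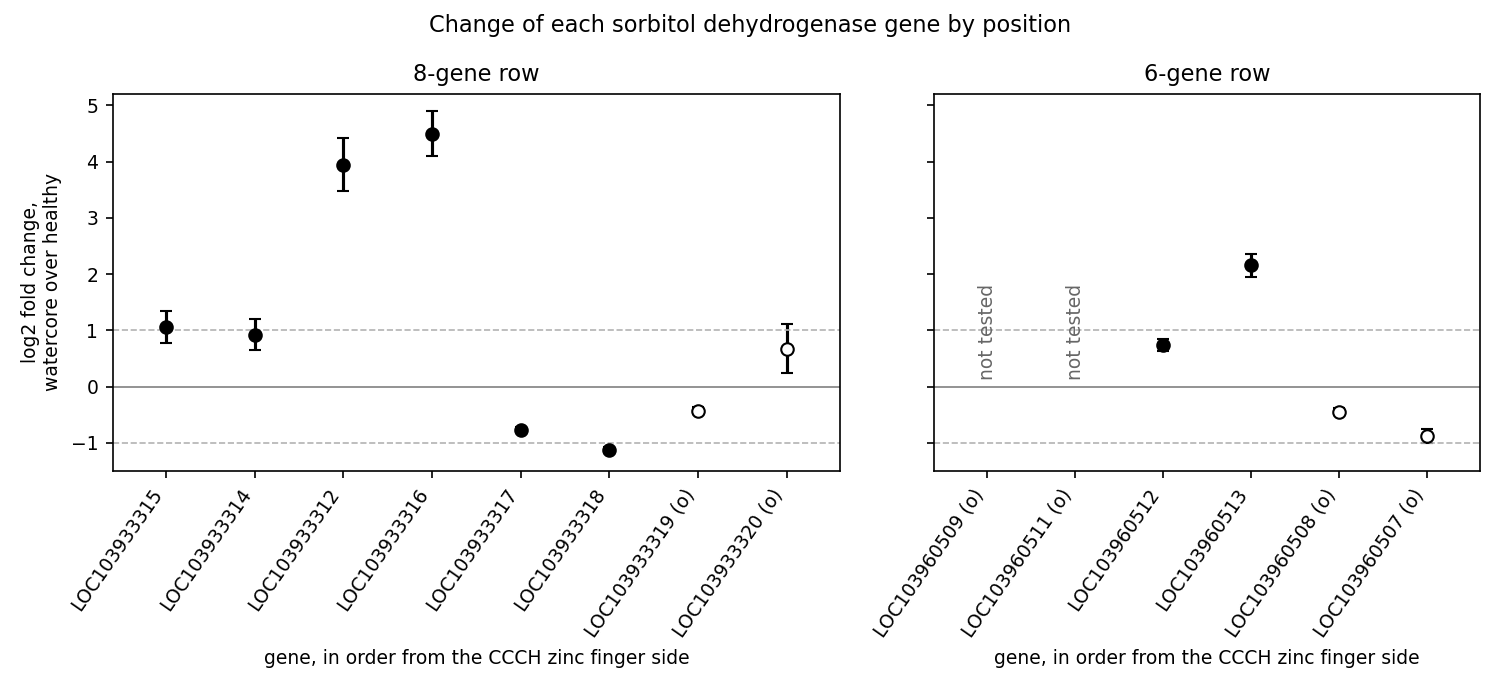
Log2 fold change of watercore over healthy pulp with its standard error for each gene, in order from the CCCH zinc finger side. Filled points are the 8 listed genes, open points the other 4 tested genes marked (o), and dashed lines the fold threshold of the study at 1 and −1. The values run from 4.50 for LOC103933316 to −1.13 for LOC103933318, which lie 2 places apart in the 8-gene row.

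The span of a gene beyond its listed length differed along the rows. In LOC103933317, LOC103933318, LOC103960512 and LOC103960513 the span exceeded the listed length by 129 to 145 bases, which leaves little room for introns, and LOC103933319 and LOC103960508 were alike, with 137 and 140 bases. In LOC103933316 the excess was 211 bases, in LOC103933315 730 bases, in LOC103933314 1668 bases and in LOC103933312 2288 bases. In LOC103960507, LOC103960511 and LOC103960509 it was 617, 337 and 919 bases. The genes with a small excess stood together, at positions 5 to 7 of the 8-gene row and 3 to 5 of the 6-gene row. All genes with a mean above 90 FPKM in either group were among them, and LOC103960513, at 1.71 to 11.04 FPKM, was the 1 gene of low level among them.

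All 8 listed genes had enough counts to be tested. Across all 21200 tested genes 17.6% were called higher and 7.54% lower in watercore pulp, or 25.1% in either direction, by edgeR's quasi-likelihood test with Benjamini-Hochberg adjustment. Of the 8, 4 were called higher (LOC103933312, LOC103933315, LOC103933316 and LOC103960513) and 1 was called lower (LOC103933318). LOC103933312 and LOC103933316 had at most 6 and 4 counts in any healthy library, so they passed the count filter through their watercore libraries alone. Their calls are therefore not independent of that filter. With at least 10 counts in every library they were not tested, and 2 listed genes were called higher. Without the minimum fold change 6 were higher and 2 lower, against 32.3% and 30.4% of all tested genes. The libraries of the groups did not overlap for 8 of the 8, and they did not overlap for 69.1% of all tested genes.

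Rare genes were called higher more often in the whole table. Among tested genes with a mean under 10 FPKM over the 6 libraries, 24.1% were called higher and 8.81% lower, with a median log2 fold change of 0.16. Among those of 10 FPKM or more the shares were 8.7% and 5.8% and the median −0.15. Of the listed genes 5 had a mean under 10 FPKM, of which 4 were called higher and 0 lower, and 3 had more, of which 0 were called higher and 1 lower. The 4 include LOC103933312 and LOC103933316, which were tested only because of their watercore counts. The median log2 fold change of the 8 was 0.99, against 0.00 for all tested genes, and lies between LOC103933314 and LOC103933315, far from the abundant genes.

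Of the 6 genes outside the list, 4 were tested and 0 were called in either direction by edgeR, nor any by DESeq2, with 3 lower at an adjusted p under 0.05 alone (also 3 unadjusted). The 3 were LOC103933319, LOC103960507 and LOC103960508, whose values stand above.

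The genes next to the rows were compared with the same thresholds. Within 50000 bases of the outermost listed genes lay 19 other genes, of which 15 were tested, and 2 were called higher and 1 lower, against 17.6% and 7.54% of all tested genes. DESeq2 called 6 of them, 3 higher and 3 lower, and 6 were called with no filter on low counts. On the CCCH side of the 8-gene row, the nearest gene, LOC103933310 (CCCH zinc finger), had 23.6 ± 0.776 FPKM in healthy and 25.2 ± 2.16 FPKM in watercore libraries (SD, n = 3, with a log2 fold change of 0.08, edgeR adjusted p = 0.364). LOC103933311, a calcium-dependent protein kinase, had a log2 fold change of −0.01 (edgeR adjusted p = 0.958). Both stood next to the 4 rare genes whose log2 fold changes were 0.92 to 4.50.

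Farther out, LOC103933306, whose product name is that of a factor that remodels lipid anchors of proteins, fell from 15.4 ± 1.89 to 5.42 ± 0.710 FPKM (SD, n = 3, log2 fold change −1.52, edgeR adjusted p = 1.9e-05). LOC103960519, its namesake beside the 6-gene row, had 14.5 ± 1.47 and 8.26 ± 0.842 FPKM (log2 fold change −0.83, edgeR adjusted p = 2.7e-04) and was short of the fold threshold. LOC103933307 and LOC103960520, both named valine-tRNA ligase, an enzyme that loads a tRNA with its amino acid, had log2 fold changes of 0.46 and 0.16.

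LOC103933308, a dehydration-responsive element-binding factor, was called higher with 2 counts in all healthy libraries together and 38 in all watercore libraries. The ratio of 18.9 has an exact 95% interval of 4.88 to 161.5, which covers counting error only. LOC103960521, its namesake beside the 6-gene row, had 0 counts in every healthy library and 20, 6 and 29 counts in the watercore libraries, and was not tested. Other untested genes of the window went the other way. LOC103933322 had 6, 6 and 13 counts in healthy and 0 in every watercore library. LOC103933303 had 6, 4 and 12 counts in healthy and 0, 0 and 1 in watercore libraries. LOC103933309, also untested, overlapped between the groups. LOC103933305, an ethylene-responsive factor, had a log2 fold change of 0.89 (edgeR adjusted p = 0.0878).

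Beside the 6-gene row, the 6 tested genes nearest to the listed pair had log2 fold changes of −0.83 to 0.59, all short of the fold threshold. LOC103960514 (CCCH zinc finger) had a log2 fold change of 0.20, LOC103960516 (calcium-dependent protein kinase) one of 0.59, LOC103960517 (an ABC transporter, a membrane pump) one of 0.28 and LOC103960506 (pentatricopeptide repeat, a class of proteins that bind organelle RNA) one of 0.09. The other gene called higher, LOC103933324, was the pentatricopeptide repeat gene of the 8-gene row, with 0.421 ± 0.096 FPKM in healthy and 0.949 ± 0.073 FPKM in watercore libraries (SD, n = 3, with a log2 fold change of 1.15, edgeR adjusted p = 0.00836). It was named after its value was seen.

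The genes around sorbitol dehydrogenase in the pathway were listed by product name. The counts of each list below stand beside 17.6% of all tested genes called higher and 7.54% called lower. At an adjusted p under 0.05 alone the shares were 32.3% and 30.4%, and shares at an unadjusted p were not computed. Of 13 fructokinase genes 8 were tested, 0 were called higher by edgeR (2 at an unadjusted p under 0.05, 0 by DESeq2) and 1 was called lower. LOC103946069 (probable fructokinase-1) fell from 4.71 ± 0.245 to 2.02 ± 0.360 FPKM (SD, n = 3, log2 fold change −1.23, edgeR adjusted p = 3.0e-04). The most abundant fructokinase gene, LOC103927248, had 29.3 ± 2.25 and 24.5 ± 1.12 FPKM and a log2 fold change of −0.27 (edgeR adjusted p = 0.0137).

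Of 10 hexokinase genes 4 were tested, and 1 was called in each direction. LOC103943909 (hexokinase-1) fell from 8.47 ± 0.626 to 3.54 ± 0.114 FPKM (log2 fold change −1.27, edgeR adjusted p = 1.8e-05). LOC103964178 (hexokinase-3-like) had 3, 0 and 1 counts in healthy and 21, 70 and 49 counts in watercore libraries and was called higher (edgeR adjusted p = 4.1e-04). The most abundant, LOC103927847, had 51.5 ± 3.52 and 61.9 ± 1.0 FPKM (SD, n = 3, log2 fold change 0.25, edgeR adjusted p = 0.00629).

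Genes like LOC103933317 were sought by a measure that mostly follows the difference between healthy and watercore pulp, so similar fold changes are built into it. Likeness beyond that difference was not tested. A hexokinase gene came first. Over the 6 libraries, with each gene centred on its own mean log2 CPM, the root mean square difference to LOC103933317 was smallest among 6344 genes for LOC103931050 (hexokinase-1-like), at 0.0175. It had 23.2 ± 0.161 FPKM in healthy and 13.7 ± 0.576 FPKM in watercore pulp (SD, n = 3) and a log2 fold change of −0.76. LOC103935620 (6,7-dimethyl-8-ribityllumazine synthase, an enzyme of riboflavin synthesis) followed at 0.0234 and LOC103950751 (metal transporter Nramp2-like) at 0.0250, both with a log2 fold change of −0.76.

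On the supply side, 14 of 29 polyol transporter genes were tested, with 7 called higher and 2 lower, against 17.6% and 7.54% of all tested genes. Where every library had to hold 10 counts or more, 0 were called higher and 1 lower. That filter leaves out genes with few counts in either group, LOC103936324 and LOC103936910 among them. It therefore cannot tell whether their changes hold. The most abundant of them, LOC103936913, had 150 ± 2.50 FPKM in healthy and 161 ± 2.50 FPKM in watercore pulp (SD, n = 3, edgeR adjusted p = 0.111). LOC103936910 had the lowest log2 fold change, −3.48 (edgeR adjusted p = 2.7e-05), at 2.26 ± 0.616 FPKM in healthy and 0.20 ± 0.017 FPKM in watercore pulp. LOC103936324 had the highest, with 1 count in all healthy libraries together and 29, 11 and 105 counts in the watercore libraries.

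The 2 tested genes of sorbitol synthesis went opposite ways. LOC103967955 had 103, 54.5 and 35.1 FPKM in healthy libraries and 10.3 to 12.1 FPKM in watercore libraries, and was called lower. LOC103966946 had 2.51 to 3.16 FPKM in healthy and 13.1 to 16.2 FPKM in watercore libraries, and was called higher. Both stood below LOC103933317 in every library.

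Of 8 sucrose phosphate synthase genes 7 were tested, and of 14 genes of UDP-sugar supply 11 were tested, with 0 called in either list by edgeR or by DESeq2. At an unadjusted p under 0.05, 1 gene was higher and 2 lower in the first list, and 4 were higher and 3 lower in the second. Their most abundant genes, LOC103953884 and LOC103956806, had log2 fold changes of −0.09 and 0.27.

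Other zinc alcohol dehydrogenases, which share the domains of sorbitol dehydrogenase and include the last enzyme of ethanol formation, were listed beside them. Of 15 such genes 8 were tested, with 3 called higher and 1 lower, against 17.6% and 7.54% of all tested genes. Their median log2 fold change was 0.71. LOC103966275 had 0.528 ± 0.337 FPKM in healthy and 118 ± 12.7 FPKM in watercore libraries (SD, n = 3, with a log2 fold change of 7.79, edgeR adjusted p = 8.7e-08). LOC103966279 rose from 4.29 ± 1.33 to 79.6 ± 11.2 FPKM (log2 fold change 4.20, edgeR adjusted p = 5.2e-07).

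LOC103939570 had 4 counts in healthy replicate 1, 0 in the other healthy libraries and 201 to 394 counts in the watercore libraries, and was called higher. LOC103946843 was called lower (log2 fold change −1.08, edgeR adjusted p = 9.0e-05). The most abundant of the list, LOC103951141, had 680 ± 48.6 and 657 ± 16.8 FPKM (SD, n = 3, edgeR adjusted p = 0.423).

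The 6 libraries held 14382020 to 15290688 counts each. Among markers of other cells, the summed level of 26 seed and embryo genes was 163 to 213 CPM (library-scaled counts) in healthy libraries and 1678 to 1838 CPM with watercore, with 10 of the 26 at 0 counts throughout. Most of this difference came from 2 genes of 11S globulin, a seed storage protein, at 6.91 to 17.4 CPM and 1138 to 1279 CPM, and from legumin, at 65.8 to 127 CPM and 446 to 467 CPM. The 13 oleosin genes overlapped between the groups, at 57.7 to 77.3 CPM and 71.0 to 84.1 CPM, and 9 vicilin genes were at 13.3 to 16.5 CPM and 20.2 to 23.0 CPM. For lignifying cells, 57 genes summed to 4.22 to 7.07 CPM in healthy libraries and 125 to 229 CPM with watercore, with 22 at 0 throughout. The difference lay in the 50 laccase genes, at 2.89 to 6.12 CPM and 123 to 226 CPM, while the secondary wall cellulose synthases were at 1.53 CPM or less for each subunit, and the 1 of these genes tested was not called. Among 10 tested genes of each list, 5 and 8 were called higher and 0 and 1 lower, the 1 being a laccase gene. Of all tested genes 17.6% were called higher and 7.54% lower. The part of these cells in the changes of the sorbitol dehydrogenase genes was not tested. For epidermis and cuticle, 51 genes summed to 110 to 117 CPM in healthy libraries and 106 to 117 CPM with watercore, of which 27 were at 0 throughout. Nearly all of it came from 39 genes of 3-ketoacyl-CoA synthase, while the 12 ECERIFERUM wax genes summed to at most 1.39 CPM, and no skin library was compared. For 12 phloem genes the sums were 136 to 156 CPM and 165 to 178 CPM, and for 32 genes of photosynthetic tissue 965 to 997 CPM and 1001 to 1108 CPM. The higher photosynthetic sum came from 5 genes of the ribulose bisphosphate carboxylase small subunit, at 882 to 903 CPM and 924 to 1033 CPM. The 27 chlorophyll a-b binding genes went the other way, at 83.6 to 93.7 CPM and 75.4 to 78.2 CPM. Of 13 tested photosynthetic genes, 2 were called higher and 4 lower.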

How the data were processed

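Clean reads were mapped with Hisat2, per the paper's methods to the *Pyrus betulifolia* genome, although the table lists identifiers and scaffolds of another annotation. The sources used here give neither the counting tool nor whether reads of similar copies were shared. The authors deposited raw counts per gene and library without normalization, and FPKM, those counts scaled by gene length and library. Columns with the authors' own group means, fold changes and p-values were not used.

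Counts were tested with edgeR 4.0.16 under R 4.3.3 (quasi-likelihood test, TMM factors, filterByExpr), which kept 21200 genes. Standard errors were taken from the fold change and its F statistic. Genes with a log2 fold change of 1 or more in either direction and a Benjamini-Hochberg adjusted p under 0.05, over all tested genes, were called. These are the thresholds of the study, which tested with DESeq2. Tables were handled with pandas 2.3.3 and drawn with matplotlib 3.10.9 under Python 3.11.15. Libraries of a group were treated as independent replicates. Between replicates, chi-square over its degrees of freedom was 4.18 to 10.5, so none was a duplicate. The pipeline was tested on simulated data.

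The listed genes and all other lists were chosen with earlier results of these data known. Named were every gene of the rows, up to 6 nearest tested flanking genes per row, up to 4 called genes of a list (otherwise the largest change in each direction) with its most abundant gene, and the 3 genes most like LOC103933317 at an average log2 CPM of at least 5. Alternatives were DESeq2 1.42.0, other scalings and filters, gene length offsets, a replicate block, no minimum fold change and each library left out. No sequence was used, and Dixon's rule was not applied, since groups of 3 are not tested.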

Additional observations from a re-analysis of the deposited data

How the results depend on the processing

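The direction of all 8 listed genes was the same under every alternative in which the gene was tested. Ranges of their log2 fold changes were 4.14 to 5.12 (LOC103933316), 3.48 to 4.27 (LOC103933312), 2.0 to 2.39 (LOC103960513), 0.87 to 1.28 (LOC103933315), 0.78 to 1.14 (LOC103933314), 0.63 to 0.87 (LOC103960512), −0.78 to −0.62 (LOC103933317) and −1.17 to −0.97 (LOC103933318). With at least 10 counts in every library LOC103933312 and LOC103933316 were not tested, and 2 listed genes were called higher. With gene length offsets 0 were called lower by edgeR, and with no minimum fold change 2 were lower, beside 3 of the genes outside the list. The median of the listed genes was 0.89 with at least 10 counts, 1.21 with gene length offsets and 0.87 to 1.12 with a library left out.

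Over all genes, 2205 were called higher and 1047 lower with at least 10 counts, and 6840 and 6435 with no minimum fold change. Of the flanking genes, 6 were called by DESeq2, 6 with no filter, 9 with no minimum fold change and 3 to 5 with a library left out. A window set from the outermost gene of a row, chosen after seeing the data, gave 3.

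With at least 10 counts, polyol transport had 0 genes higher and 1 lower, hexokinase 0 higher, UDP-sugar supply 1 higher and zinc alcohol dehydrogenases 1 higher. DESeq2 and no filter each gave 5 zinc alcohol dehydrogenases higher, and no filter 2 hexokinases higher. With no minimum fold change, 4 polyol transporters were lower, 2 fructokinases higher and 4 lower, 2 hexokinases higher and 2 lower, 1 sucrose phosphate synthase higher and 2 lower, 4 UDP-sugar genes higher and 2 lower, and 5 zinc alcohol dehydrogenases higher and 2 lower. With a library left out, 1 to 2 hexokinases were lower and 0 to 1 UDP-sugar genes higher. Filters change which genes are tested and the scaling factors computed from them, and the cause of the differences between settings was not tested.

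Reversals were seen in 4 uncalled genes near 0. The log2 fold change of LOC103933311 was 0.00062 by DESeq2, 0.0079 with RLE factors, 0.052 with at least 10 counts and −0.13 to 0.070 with a library left out. LOC103960520 had −0.15 with gene length offsets (edgeR adjusted p = 0.0198), against 0.16 in the main fit (edgeR adjusted p = 0.0187). LOC103960506 had −0.012 with gene length offsets and −0.093 to 0.30 with a library left out. LOC103951141 had 0.0016 with at least 10 counts and 0.12 with gene length offsets.

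Whether same-numbered libraries are pairs is not known, since the sources used here do not give how fruit were pooled. The deviations of same-numbered libraries from their group means correlated at 0.0028 to 0.028 across genes. This cannot decide the question, since paired libraries need not deviate alike. With the numbers as a replicate block, 4 listed genes were called higher and 1 lower, and 3716 and 1560 of all genes. Depth limits the rarest genes most, since LOC103933312 and LOC103933316 rest on 13 and 7 counts over all healthy libraries.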
